A study of Mus musculus with 36 samples.

Results

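The IGF1 axis in mouse articular cartilage is described here through 8 genes out of the 23631 in the count files. These are the growth factor Igf1, its receptor Igf1r and the binding proteins Igfbp2, Igfbp3, Igfbp4, Igfbp5, Igfbp6 and Igfbp7. Each gene was taken as the RefSeq transcript row with the highest mean count over the 12 RNA libraries. The mice were male C57BL/6J animals, operated at 12 weeks of age. Their right knee underwent DMM, surgical destabilization of the medial meniscus, which leads to osteoarthritis, and the left knee of the same animals was left unoperated as control. Articular cartilage of tibia and femur was dissected at 4 and at 12 weeks after surgery, with 3 knees pooled in each library and 3 libraries per limb and week. RNA was sequenced in 12 libraries. DNA of other mice was profiled by reduced representation oxidative bisulfite sequencing (RRoxBS), which reads 5-methylcytosine (5mC) from an oxidised (oxBS) library and, by comparison with an unoxidised bisulfite (BS) library, 5-hydroxymethylcytosine (5hmC). The control is the opposite limb of an operated mouse and not a sham-operated knee, and animals at 12 weeks were also older than those at 4 weeks, so the week after surgery, the age of the mice and the library set cannot be told apart.

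IGF1 is a secreted growth factor that acts on chondrocytes to raise matrix synthesis and survival. It binds the receptor tyrosine kinase IGF1R, which signals through insulin receptor substrates, PI3 kinase and AKT. Binding proteins hold IGF1 and IGF2 outside the cell, prolong their life and limit their access to the receptor, and proteases such as pregnancy-associated plasma protein A and HTRA1 cleave some of them and release the ligand. IGFBP3 is the main carrier in serum, IGFBP5 binds matrix, IGFBP6 prefers IGF2, and IGFBP7 binds IGFs weakly and also has effects that do not depend on them.

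The libraries held 27706547 to 62737656 counts. All 8 genes were detected in every library and passed the filter on low counts, with Igfbp2 the rarest at 10 to 74 counts and Igfbp7 among the most abundant at 4544 to 31905 counts. Levels are given as CPM, the count per 1e+06 counts of the library after TMM scaling. Chondrocyte markers (20 genes, among them Col2a1 and Acan) were detected in all libraries with a summed level of 6690 to 28085 CPM. Chad made up most of this sum on average, with group means of 6860 to 14511 CPM. Those of Col2a1 were 674 to 1347 CPM and those of Acan 292 to 737 CPM. The libraries also held RNA of other tissues. The summed level of 20 skeletal muscle genes ranged from 121 to 28027 CPM, that of 10 neutrophil and marrow genes from 9262 to 43972 CPM, and of the markers of other cell types with a row only the adipocyte gene Lep was at 0 in some libraries, in 4 of them. In bulk tissue, fewer cells of a type and less RNA per cell cannot be told apart. Control replicate 3 at 4 weeks stood apart, with 16333 CPM of 10 fibroblast and synovium genes (26207 and 27904 CPM in the other controls of that week) and 26722 CPM of neutrophil and marrow genes (9262 and 15472 CPM). At 12 weeks control replicate 3 stood apart too, with 15726 CPM of the fibroblast and synovium genes (28255 and 33342 CPM in the other controls). Its muscle genes summed to 18787 CPM (121 and 2375 CPM in the other controls). Those of DMM replicate 1 at 12 weeks summed to 14958 CPM (817 and 1119 CPM in the other DMM libraries).

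The starts of the 8 genes differed in sequence. This bears on where RRoxBS can read them, because the method cuts at CCGG and covers CpG-rich DNA. The 250 bases before the transcript start (RefSeq, GRCm38.p6) are printed for 4 genes, 5′ to 3′ on the strand of the gene, with each CpG in capitals. Igf1 and Igfbp6 are shown as starts with about the usual number of CpGs and Igf1r and Igfbp7 as CpG-rich starts.
Igf1, chr10:87860861-87861110, plus strand: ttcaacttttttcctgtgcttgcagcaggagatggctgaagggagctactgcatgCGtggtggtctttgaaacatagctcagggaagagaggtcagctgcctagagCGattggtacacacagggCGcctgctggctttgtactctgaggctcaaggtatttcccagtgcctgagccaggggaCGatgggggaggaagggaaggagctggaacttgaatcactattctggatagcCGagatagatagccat
Igfbp6, chr15:102143936-102144185, plus strand: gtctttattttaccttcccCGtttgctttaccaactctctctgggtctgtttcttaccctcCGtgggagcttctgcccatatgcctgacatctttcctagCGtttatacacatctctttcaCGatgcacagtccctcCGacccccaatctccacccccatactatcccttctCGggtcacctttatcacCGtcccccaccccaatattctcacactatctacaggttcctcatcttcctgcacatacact
Igf1r, chr7:67952007-67952256, plus strand: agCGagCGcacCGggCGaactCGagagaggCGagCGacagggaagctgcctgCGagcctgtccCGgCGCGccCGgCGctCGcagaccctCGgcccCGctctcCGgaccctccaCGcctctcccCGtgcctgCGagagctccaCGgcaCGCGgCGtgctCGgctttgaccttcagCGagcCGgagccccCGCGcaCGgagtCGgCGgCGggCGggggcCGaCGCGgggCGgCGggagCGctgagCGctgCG
Igfbp7, chr5:77408046-77408295, minus strand: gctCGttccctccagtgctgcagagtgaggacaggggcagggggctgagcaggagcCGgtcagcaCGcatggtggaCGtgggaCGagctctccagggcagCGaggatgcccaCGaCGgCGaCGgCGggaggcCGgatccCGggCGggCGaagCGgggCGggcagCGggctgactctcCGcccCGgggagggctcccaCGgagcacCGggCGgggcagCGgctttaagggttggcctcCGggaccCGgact
The stretch of Igf1 held 5 CpGs and that of Igfbp6 held 7, beside a median of 6 over 32851 RefSeq promoters, and neither held a CCGG site or a measured cytosine. The Igf1 stretch precedes the start of the shorter transcripts at chr10:87861111, downstream of the start of the transcript used for the counts. The stretch of Igf1r held 42 CpGs and 5 CCGG sites, and 99.3% of RefSeq promoters held as many CpGs or fewer. The stretch of Igfbp7 held 26 CpGs and 7 CCGG sites, and 91.4% of RefSeq promoters held as many or fewer. Igfbp3 (32 CpGs), Igfbp4 (22) and Igfbp2 (14 at the start of the counted transcript) were also above the median, and Igfbp5 held 10 with no CCGG site. The stretch of Igfbp4 held 4 CCGG sites but only 2 measured cytosines at 4 weeks and 1 at 12 weeks, beside 22 and 14 for Igfbp7.

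The binding proteins made up most of the axis by level. Compared per kilobase of transcript, Igfbp7 was the most abundant member in the 4-week control libraries at 468 ± 178 CPM per kb (mean ± SD, n = 3), followed by Igfbp4 (120 ± 35.5), Igfbp6 (105 ± 72.3), Igfbp5 (49.8 ± 32.7), Igfbp3 (6.20 ± 0.163), Igf1 (4.81 ± 1.17), Igf1r (1.82 ± 0.167) and Igfbp2 (0.755 ± 0.426). The libraries of Igfbp4, Igfbp6 and Igfbp5 overlapped, as did those of Igfbp3 and Igf1. In the 4-week DMM libraries the order was Igfbp7 (639 ± 59.8 CPM per kb), Igfbp6 (174 ± 24.0), Igfbp4 (152 ± 13.5), Igfbp5 (64.4 ± 10.2), Igf1 (19.1 ± 7.51), Igfbp3 (8.12 ± 1.72), Igf1r (1.38 ± 0.225) and Igfbp2 (0.375 ± 0.101), so that Igf1 stood above Igfbp3 in every library there. Igfbp4 and Igfbp6 overlapped in that group. In the 12-week control libraries Igfbp4 (149 ± 3.32 CPM per kb) and Igfbp7 (133 ± 48.6) overlapped at the top, Igfbp6 (34.2 ± 4.94) and Igfbp5 (26.1 ± 10.6) overlapped next, and Igf1 (2.67 ± 0.524) and Igf1r (2.30 ± 0.191) overlapped above Igfbp3 (1.85 ± 0.173) and Igfbp2 (0.668 ± 0.201). In the 12-week DMM libraries Igfbp7 again led at 332 ± 121 CPM per kb, before Igfbp4 (138 ± 17.1) and Igfbp6 (95.8 ± 28.3), which overlapped.

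**Figure D1:**
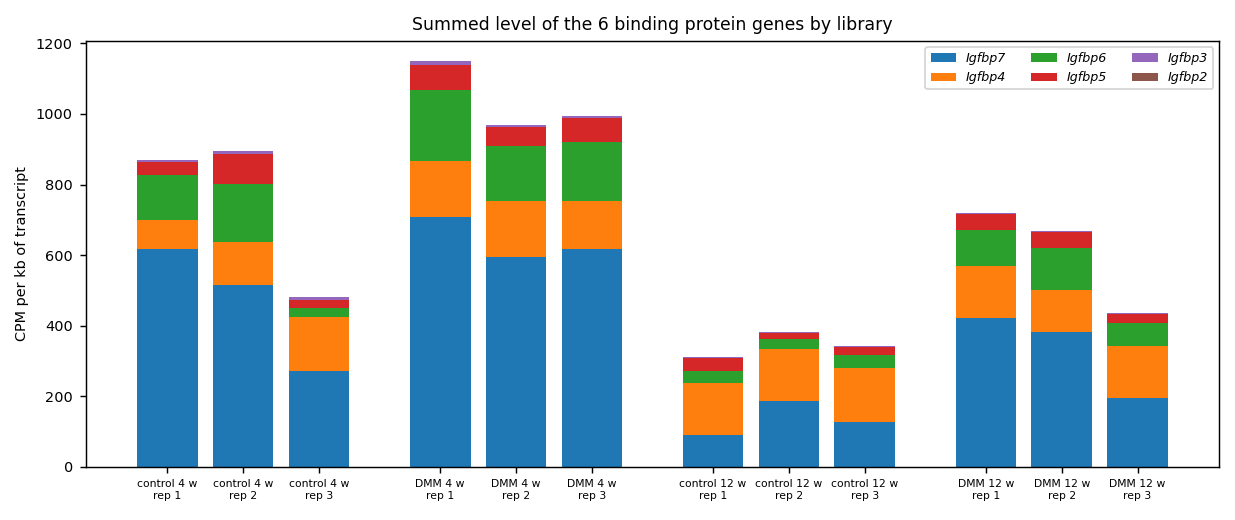
Level of the 6 binding protein genes in each RNA library, in CPM per kilobase of transcript (y axis), stacked by gene, for 3 control and 3 DMM libraries at 4 weeks (4 w) and 12 weeks (12 w). The 12-week control stacks reach 311 to 382 CPM per kb, below all other libraries, and the band of Igfbp7 varies most.

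Added up per kilobase, the 6 binding proteins reached 871, 895 and 481 CPM per kb in the 4-week control libraries and 1150.3, 970 and 995 in the 4-week DMM libraries. At 12 weeks the sums were 311, 382 and 342 in control and 720, 667 and 435 in DMM. The share of Igfbp7 in the sum was 61.5 ± 8.02% in the 4-week control group and 61.5 ± 0.368% in the 4-week DMM group, and at 12 weeks 37.8 ± 9.97% in control and 53.5 ± 7.64% in DMM. Divided by the level of Igf1 per kilobase, the summed binding proteins were 198, 146 and 123 times as high in the 4-week control libraries and 96.7, 52.2 and 37.0 times as high in the 4-week DMM libraries. At 12 weeks this ratio was 121, 174 and 106 in control and 140, 153 and 127 in DMM. The ratio of 4-week DMM libraries was below that of every other library. These sums and ratios are descriptions without a test. They count Igfbp7 in full, although IGFBP7 binds IGFs weakly, and were not computed without it.

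DMM was compared with control at 4 weeks after surgery, the early stage. Igf1 differed most. Its level was 31.3, 43.7 and 27.8 CPM in the control libraries and 84.7, 132 and 192 CPM in the DMM libraries, so the groups did not overlap and the mean was 3.97 times as high in DMM. The log2 fold change of Igf1 was 1.98 (SE 0.32, edgeR's quasi-likelihood test, Benjamini-Hochberg adjusted p = 0.173, unadjusted p = 0.000233), which did not pass the threshold of 0.05. The 4 transcript rows of Igf1 differed by at most 6.80% of their counts in any library, and each had a log2 fold change of 1.98 or 1.99. These rows end at the same base and are 6987 to 7125 bases long, so they largely count the same reads and are no separate support. A further row with 209 to 1328 counts had a profile as near to that of Igf1 as its closest genes (0.249 log2 units by the measure used for profiles below), but the sources used here give it no gene name and it was not counted as Igf1.

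Among the other members at 4 weeks, the receptor Igf1r was measured at 22.5, 23.3 and 19.5 CPM in control and at 19.7, 14.9 and 15.0 CPM in DMM, with a log2 fold change of -0.40 (SE 0.20) and 1 DMM library just above the lowest control library. Igfbp3 was measured at 14.8, 15.1 and 15.6 CPM in control and 24.5, 18.8 and 16.3 CPM in DMM. The groups of Igfbp3 did not overlap, but its log2 fold change was only 0.39 (SE 0.22), with 0.20 to 0.52 over the settings. Igfbp6 was measured at 163, 211 and 31.4 CPM in control and 259, 199 and 217 CPM in DMM, a log2 fold change of 0.74 (SE 0.56). Igfbp7 was measured at 747, 626 and 328 CPM in control and 857, 720 and 747 CPM in DMM, a log2 fold change of 0.45 (SE 0.32). For both genes control replicate 3 lay far below the other libraries of that week, and without it the log2 fold change was 0.26 for Igfbp6 and 0.17 for Igfbp7. Without control replicate 2 that of Igfbp6 was 1.21, and without control replicate 1 that of Igfbp7 was 0.70. Igfbp5, the matrix-binding member, ranged from 142 to 507 CPM in control and from 311 to 427 CPM in DMM, so that the DMM values lay inside the control range. Igfbp4, the abundant substrate of pregnancy-associated plasma protein A, ranged from 175 to 324 CPM in control and from 286 to 336 CPM in DMM, and Igfbp2 from 0.351 to 1.38 CPM and from 0.366 to 0.634 CPM. The log2 fold changes were 0.38 (SE 0.43) for Igfbp5, 0.34 (SE 0.27) for Igfbp4 and -1.01 (SE 0.54) for Igfbp2. That of Igfbp2 ran from -1.40 to -0.72 over the settings.

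By edgeR's quasi-likelihood test, 0 of the 8 genes passed an adjusted p of 0.05 at 4 weeks, where 0.0757% of all 21140 rows tested passed, and 1 (Igf1) had an unadjusted p under 0.05, where 13.7% of rows did. DESeq2, which called 2.91% of its rows, called Igf1 alone among the members (log2 fold change 1.99, adjusted p = 3.89e-06). The median log2 fold change of the 8 genes was 0.38, beside -0.03 over all rows, and 6 of the 8 were higher in DMM. The libraries did not overlap for 2 of the 8 genes, both higher in DMM (Igf1 and Igfbp3), where 10.6% of genes were higher without overlap and 10.3% lower. With 3 libraries against 3, an exact two-sided permutation test cannot go below p = 0.1, which is the value for both. Leaving out control replicate 3 at 4 weeks brought Igf1 past the threshold (log2 fold change 1.85, adjusted p = 0.0463), in a fit that called 0.553% of all rows.

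**Figure D2:**
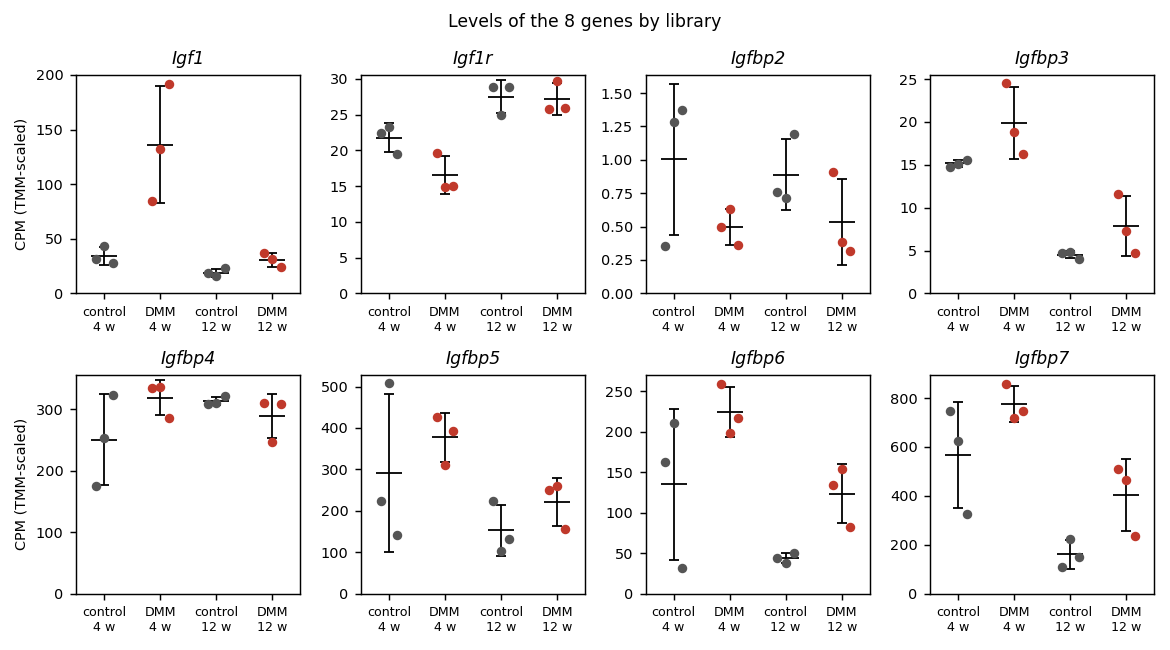
Level of each of the 8 genes in CPM after TMM scaling (y axis, linear from 0), with 1 point per library, a line at the mean and bars of 1 SD, for 3 control (grey) and 3 DMM (red) libraries at 4 and 12 weeks. For Igf1 the 4-week DMM points (84.7 to 192 CPM) lie above all other libraries, and for Igfbp6 and Igfbp7 the 12-week control points lie below the 12-week DMM points.

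Within several marker lists most genes changed in the same direction between the limbs at 4 weeks, with few called by edgeR. The summed level of 11 osteoblast and osteocyte genes was 10923 to 12358 CPM in control and 17310 to 18129 CPM in DMM, with 8 of 11 genes higher and 0 called by edgeR, 1 at an unadjusted p under 0.05, and 1 called by DESeq2. The median log2 fold change of the list was only 0.15. Much of the rise lay in Ibsp (means of 2987 and 5830 CPM) and Spp1 (4932 and 7598 CPM). The list of 10 fibroblast and synovium genes, which shares Col1a1 with the osteoblast list, was at 16333 to 27904 CPM in control and 24439 to 30985 CPM in DMM, with 9 of 10 higher and 0 called by edgeR (4 at an unadjusted p under 0.05, 4 called by DESeq2). Prg4 (means of 10410 CPM in control and 6618 CPM in DMM) and Dcn (7402 and 12861 CPM) made up most of this sum. The 9 macrophage genes with a row, which include Lyz2, were at 2132 to 4643 CPM in control and 3112 to 6652 CPM in DMM, with 8 of 9 higher. Skeletal muscle genes went the other way, with 20 of 20 lower in DMM, 1 of them called by edgeR and 15 by DESeq2, and sums of 7449 to 28027 CPM in control and 742 to 4471 CPM in DMM. Chondrocyte genes were lower in 14 of 20 cases, with a median of -0.59 on the log2 scale, 7 of them at an unadjusted p under 0.05 and 0 called by edgeR (1 lower and 1 higher by DESeq2), and sums of 11187 to 28085 CPM in control and 8548 to 15843 CPM in DMM. Chad, most of that sum, had means of 14511 CPM in control and 6860 CPM in DMM, and Col2a1 of 885 and 1018 CPM. The part of these cell types in the difference of Igf1 was not tested.

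At 12 weeks, the later stage, the binding proteins Igfbp6 and Igfbp7 differed most. Igfbp6 was measured at 44.6, 37.4 and 50.1 CPM in the control libraries and at 134, 154 and 83.0 CPM in the DMM libraries. The groups did not overlap and the mean was 2.81 times as high in DMM (log2 fold change 1.50, SE 0.24, edgeR's adjusted p = 0.0789, unadjusted p = 0.00021). Igfbp7 was measured at 108, 224 and 152 CPM in control and at 510, 464 and 236 CPM in DMM, 2.50 times as high on average (log2 fold change 1.33, SE 0.36, edgeR's adjusted p = 0.215). Its groups did not overlap, but the lowest DMM library lay close to the highest control library.

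Igf1 was measured at 18.3, 15.7 and 23.0 CPM in control and 36.8, 31.0 and 24.4 CPM in DMM at 12 weeks, again without overlap but with a smaller log2 fold change of 0.70 (SE 0.21, edgeR's adjusted p = 0.236). Igfbp3 was measured at 4.76, 4.80 and 4.05 CPM in control and 11.6, 7.23 and 4.66 CPM in DMM. DMM replicate 3 of Igfbp3 lay within the control range, and the log2 fold change was 0.80 (SE 0.33), with 0.38 to 1.07 over the settings. The receptor Igf1r hardly differed, at 28.9, 24.9 and 28.8 CPM in control and 25.8, 29.8 and 25.9 CPM in DMM (log2 fold change -0.01, SE 0.13). Igfbp4 ranged from 308 to 321 CPM in control and from 247 to 309 CPM in DMM, and Igfbp5 from 104 to 223 CPM in control and from 155 to 259 CPM in DMM. Igfbp2 ranged from 0.711 to 1.20 CPM in control and from 0.318 to 0.906 CPM in DMM (log2 fold change -0.68, SE 0.50).

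At 12 weeks 0 of the 8 genes passed the adjusted p in edgeR, where 0.00476% of 21010 rows passed, and 4 (Igf1, Igfbp3, Igfbp6 and Igfbp7) had an unadjusted p under 0.05, all higher in DMM, where 8.94% of rows were higher at that level. DESeq2, which called 3.4% of its rows, called Igfbp6 (adjusted p = 1.82e-06) and Igfbp7 (adjusted p = 0.00743). The median log2 fold change of the members was 0.62, beside 0.01 over all rows. The libraries did not overlap for 3 of the 8 genes, all higher in DMM, where 9.93% of genes were higher without overlap and 8.27% lower, and each reached p = 0.1 in the exact permutation test. Igfbp6 passed the threshold without control replicate 2 at 12 weeks (adjusted p = 0.0387), without DMM replicate 3 at 12 weeks (adjusted p = 0.0129) and without the filter on low counts (adjusted p = 0.0495), so its call rests on the setting. These fits called 4.04%, 0.481% and 0.221% of all rows.

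Markers moved at 12 weeks too. All 20 chondrocyte genes were higher in DMM, with a median of 0.52 on the log2 scale, 3 at an unadjusted p under 0.05 and 0 called by edgeR (2 by DESeq2), and their sum was 6690 to 17347 CPM in control and 14995 to 22478 CPM in DMM. Of the osteoblast and osteocyte genes, 9 of 11 were higher (median 0.41, 6 at an unadjusted p under 0.05 and 0 called by edgeR, 4 by DESeq2), and their sum was 10273 to 16081 CPM in control and 16486 to 19888 CPM in DMM. Of the fibroblast and synovium genes, 8 of 10 were higher (median 0.50, 5 at an unadjusted p under 0.05 and 0 called by edgeR, 3 by DESeq2), and their sum was 15726 to 33342 CPM in control and 30410 to 39439 CPM in DMM. Macrophage genes were lower in 8 of 9 cases (0 called by either tool), at 4394 to 5863 CPM in control and 3598 to 4250 CPM in DMM. Neutrophil and marrow genes were lower in 10 of 10 cases (median -0.48, 0 called by either tool, 26201 to 43972 CPM in control and 21139 to 34254 CPM in DMM). Erythroid genes were lower in 9 of 9 (median -0.33, 3 at an unadjusted p under 0.05 and 0 called by edgeR, 2 by DESeq2). Among them Hba-a1 and Hba-a2 had the same rounded means (2815 CPM in control and 2306 CPM in DMM), so they are no separate support. What these cell types add to the levels of Igfbp6 and Igfbp7 was not tested.

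**Figure D3:**
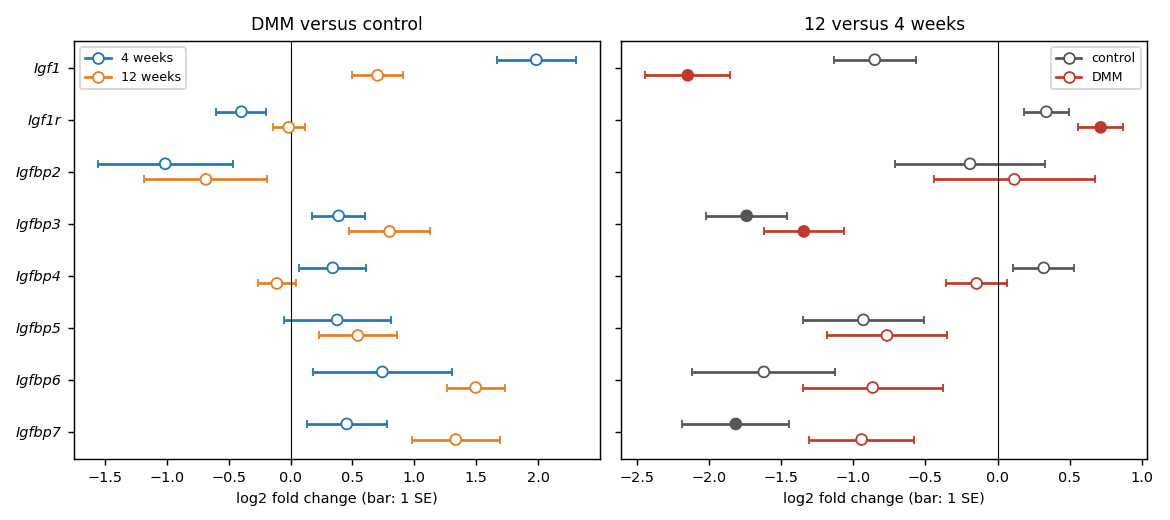
Log2 fold change of each gene from edgeR (x axis), with bars of 1 SE derived from its F statistic. Left, DMM versus control at 4 and 12 weeks. Right, 12 versus 4 weeks within control and within DMM, where filled circles mark an adjusted p under 0.05. In the left panel Igf1 at 4 weeks (1.98) and Igfbp6 at 12 weeks (1.50) lie farthest to the right and no circle is filled.

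Whether the limb difference itself changed with the week was tested as an interaction over all 12 libraries. None of the 8 genes passed in edgeR, where 0.0% of 21618 rows passed, or in DESeq2, which called 0.0613% of its rows, and 1 member had an unadjusted p under 0.05 in each tool, where 12.3% of rows in edgeR and 12.5% in DESeq2 did. That member was Igf1, whose limb difference was smaller at 12 weeks by 1.30 log2 units (interaction -1.30, SE 0.40, edgeR's unadjusted p = 0.00712, adjusted p = 0.405). Igfbp7 had an interaction of 0.87 (SE 0.51) and Igfbp6 of 0.75 (SE 0.68), and Igf1r (0.38), Igfbp2 (0.31), Igfbp3 (0.40), Igfbp4 (-0.47) and Igfbp5 (0.16) lay closer to 0. Over the settings the interaction of Igfbp6 ran from 0.28 (without control replicate 2 at 4 weeks) to 1.20 (without control replicate 3 at 4 weeks), and that of Igfbp7 from 0.64 to 1.19. Without control replicate 3 at 4 weeks, the library far below the others for both genes, 4 members (Igf1, Igfbp4, Igfbp6 and Igfbp7) had an unadjusted p under 0.05, where 24.9% of all rows did, and 0 were called, with adjusted p from 0.113 to 0.155 for these 4. The limb differences of the binding proteins at 4 and at 12 weeks were therefore not shown to differ.

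Between the weeks, most members were lower at 12 weeks than at 4 weeks in both limbs, while Igf1r was higher. In control cartilage, Igfbp3 fell from 15.2 ± 0.398 to 4.54 ± 0.422 CPM (log2 fold change -1.74, SE 0.28, edgeR's adjusted p = 0.0102) and Igfbp7 from 567 ± 216 to 161 ± 58.9 CPM (log2 fold change -1.81, SE 0.37, edgeR's adjusted p = 0.0200). These were the 2 members called in control, where 5.69% of 21618 rows were called. Igf1, with a mean of 34.3 CPM at 4 weeks and 19.0 CPM at 12 weeks (log2 fold change -0.85, edgeR's adjusted p = 0.0918), and Igfbp6, with means of 135 and 44.0 CPM (-1.62, edgeR's adjusted p = 0.0725), did not pass. The log2 fold changes of Igf1r (0.34), Igfbp2 (-0.19), Igfbp4 (0.32) and Igfbp5 (-0.93) did not pass either, with edgeR's adjusted p from 0.190 to 0.847. DESeq2, which called 11.5% of its rows, called Igf1 and Igfbp6 as well. The call of Igfbp7 was lost without control replicate 1 or 2 at 4 weeks or control replicate 1 or 3 at 12 weeks, with adjusted p-values of 0.0727 to 0.111, in fits that called 0.169 to 1.21% of all rows. That of Igfbp3 was lost without control replicate 1 at 12 weeks (adjusted p = 0.0667). Without control replicate 3 at 4 weeks, 5 members were called (Igf1, Igfbp5 and Igfbp6 in addition), and the share of all rows called rose as well, to 21.4%. The log2 fold change of Igfbp5 was then -1.28 (adjusted p = 0.0270), whereas it was -0.26 without control replicate 2 at 4 weeks, and over all settings it ran from -1.33 to -0.26.

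In DMM cartilage, 3 members were called between the weeks, where 23.6% of rows were called. Igf1 fell from 136 ± 53.5 to 30.7 ± 6.19 CPM (log2 fold change -2.15, SE 0.29, edgeR's adjusted p = 0.00315), Igfbp3 fell from 19.9 ± 4.21 to 7.82 ± 3.49 CPM (log2 fold change -1.34, SE 0.28, edgeR's adjusted p = 0.00758), and Igf1r rose from 16.5 ± 2.69 to 27.2 ± 2.25 CPM (log2 fold change 0.72, SE 0.16, edgeR's adjusted p = 0.00934). The calls of Igf1 and Igfbp3 held under every setting tried, whereas that of Igf1r was lost without DMM replicate 2 or 3 at 4 weeks (adjusted p = 0.0556 and 0.0530, with 10.1% and 7.69% of all rows called). Igfbp7, with means of 775 and 403 CPM, gave a log2 fold change of -0.94 (edgeR's adjusted p = 0.0796), and DESeq2, which called 25.3% of its rows, called it too. Igfbp2 (0.12), Igfbp4 (-0.14), Igfbp5 (-0.77) and Igfbp6 (-0.87) did not pass, with edgeR's adjusted p from 0.203 to 0.895. Without control replicate 3 at 4 weeks, 5 members were called here too (Igfbp6 and Igfbp7 in addition), where 28.1% of all rows were called. The libraries of the weeks did not overlap for 5 of the 8 genes lower at 12 weeks in DMM (Igf1, Igfbp3, Igfbp5, Igfbp6 and Igfbp7), where 19.0% of genes were lower without overlap, and for 3 in control (Igf1, Igfbp3 and Igfbp7), where 11.1% were. Igf1r was higher without overlap in both limbs, where 22.8% of genes in DMM and 15.8% in control were. Adipocyte genes were lower at 12 weeks in 10 of 10 cases in each limb, with 1 called in control and 4 in DMM by edgeR (3 and 5 by DESeq2). Neutrophil and marrow genes were higher in 10 of 10, with 1 called in each limb by edgeR (5 in control and 1 in DMM by DESeq2). Of the macrophage genes 5 of 9 were called lower in DMM by each tool, with a median of -1.26 on the log2 scale. Endothelium genes were lower in 8 of 10 cases in DMM (median -0.36, 3 called lower and 1 higher by each tool). Osteoblast and osteocyte genes were higher in 7 of 11 cases in DMM (median 0.48, 2 called higher and 1 lower by edgeR, 3 and 1 by DESeq2). Fibroblast and synovium genes were lower in 8 of 10 cases in control (median -0.79, 1 called lower by edgeR, 5 lower and 1 higher by DESeq2) and in 7 of 10 in DMM (median -0.78, 4 called lower and 1 higher by edgeR, 5 and 2 by DESeq2). Chondrocyte genes were lower in 17 of 20 cases in control and higher in 14 of 20 in DMM, and skeletal muscle genes were lower in 20 of 20 in control and higher in 20 of 20 in DMM. Of the chondrocyte genes edgeR called 1 lower in control (3 by DESeq2) and, like DESeq2, 4 higher and 1 lower in DMM, and of the muscle genes it called 0 in either limb (2 lower in control by DESeq2). Their part in the member differences was not tested.

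The other genes of the pathway were followed in 4 lists, of further ligands, receptors and carriers (7 genes), binding protein proteases and their inhibitors (7), IGF1R signalling (26) and the growth hormone axis (8), of which 45 genes were tested by edgeR. Igfbp1 and Insrr were at 0 in 11 and 9 of the 12 libraries and Igfbpl1 in all, and these 3 were not tested by edgeR and not called by DESeq2. Of the 45 genes, 0 were called between the limbs at either week by edgeR, with 6 at an unadjusted p under 0.05 at each week, where 13.7% of all rows at 4 weeks and 16.3% at 12 weeks were, and the median log2 fold change was -0.13 at 4 weeks and 0.13 at 12 weeks. DESeq2 called 2 genes of the growth hormone axis list at 4 weeks, Socs2 (0.78, adjusted p = 0.0376) and Cish (-1.44, adjusted p = 0.0133), where it called 2.91% of all its rows, and 1 at 12 weeks, Socs3 (0.84, adjusted p = 0.0196), where it called 3.4%. The largest values at 4 weeks in edgeR were those of Cish, a STAT5-induced inhibitor of cytokine signalling (-1.44, SE 0.38, edgeR's adjusted p = 0.252), Irs2, a docking protein of the receptor (-1.17, SE 0.50), and Stc1, a stanniocalcin that inhibits pregnancy-associated plasma protein A (0.96, SE 0.38). At 12 weeks they were Htra1, a protease that cleaves binding proteins (0.97, SE 0.37, edgeR's adjusted p = 0.277), the ligand Igf2 (0.86, SE 0.44), at a mean of only 0.315 to 0.926 CPM in the groups, and the transcription factor Foxo1, which AKT keeps out of the nucleus (0.84, SE 0.37).

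Between the weeks, 4 of the 45 pathway genes were called in control by edgeR, all lower at 12 weeks, where 5.69% of all rows were called. They were the growth hormone receptor kinase Jak2 (-1.09), the PI3 kinase subunit Pik3ca (-0.86), the kinase Akt1 (-1.46) and Foxo1 (-1.42). Igf2 had the largest log2 fold change in control at -1.54 and was not called by edgeR (adjusted p = 0.0636). DESeq2, which called 11.5% of all its rows there, called these 5 genes and the adaptor Grb14 lower, and the PI3 kinase subunit Pik3r1, Foxo3 and Stat5a higher. In DMM 9 of the 45 were called by edgeR, where 23.6% of all rows were, with adjusted p from 0.00539 (Jak2) to 0.0254 (Grb10). The adaptor Shc1 (0.63), the PI3 kinase subunit Pik3r2 (0.77), Foxo3 (1.25), Gsk3b (0.56), Stat5a (0.85) and the cytokine signalling inhibitor Socs3 (1.12) rose, and the adaptor Grb10 (-0.87), the growth hormone receptor Ghr (-0.86) and Jak2 (-0.83) fell. Cish (1.27) and Stc2 (1.20) were among the 3 largest values in DMM and were not called by edgeR. DESeq2, which called 25.3% of all its rows in DMM, called the 9 genes of edgeR, Cish as higher (adjusted p = 0.0255) and the docking protein Irs1 (-0.70) and the kinase Rps6kb1 (-0.35) as lower. None of the 45 was called in the interaction by either tool, where Stc2 (1.56), Igf2 (1.45) and Grb14 (1.34) had the largest values and 7 had an unadjusted p under 0.05 in edgeR, where 12.3% of all rows did.

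Genes with the most similar profile over the 12 RNA libraries were found by the root mean square difference of centred log2 CPM among 13567 genes with a name and a mean of at least 1 CPM. For Igf1 they were Lyz1 (0.210 log2 units), Gpm6b (0.247), Akr1b8 (0.258), Rnase4 (0.296) and Nnmt (0.308), beside a median of 1.13 over all genes. Lyz1, a lysozyme whose near copy Lyz2 makes its counts uncertain, had means of 6.06 CPM in 4-week control, 30.9 CPM in 4-week DMM, 3.95 CPM in 12-week control and 5.24 CPM in 12-week DMM. For Igfbp6 they were Nbl1 (0.184), a secreted antagonist of bone morphogenetic proteins, Cpxm2 (0.194), Cdh13 (0.248), Map6 (0.254) and the stromal marker Cd248 (0.260). For Igfbp7 they were Timp2 (0.272), an inhibitor of matrix metalloproteinases, Fbln7 (0.273), Rhoq (0.279), Galnt16 (0.283) and Lysmd2 (0.293). For Igfbp5 they were Dpysl3 (0.285), Sulf1 (0.292), Thbs2 (0.304), Ano1 (0.304) and the aggrecanase Adamts5 (0.305). For Igfbp3 they were Bicc1 (0.221), Gxylt2 (0.266), Cdk14 (0.303), Tbc1d12 (0.308) and Ppp2ca (0.311). These values describe likeness over libraries that share limb and week, and carry no test.

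DNA methylation of the members was read at cytosines that had 10 reads or more in all 6 oxBS libraries of the week in question. There were 750 such cytosines at 4 weeks and 670 at 12 weeks. The promoter was taken as 1000 bases before to 500 bases after the start of the counted transcript and the gene body as the rest of the gene. Igf1 had 6 measured cytosines, all in the gene body, Igfbp5 had none in the promoter and Igfbp4 none in the gene body. The genes lie (GRCm38, counted transcript) at chr10:87859052-87937047 on the plus strand (Igf1), chr7:67952257-68233667 plus (Igf1r), chr1:72824480-72852474 plus (Igfbp2), chr11:7206086-7213923 minus (Igfbp3), chr11:99041244-99052655 plus (Igfbp4), chr1:72858065-72874865 minus (Igfbp5), chr15:102144186-102149512 plus (Igfbp6) and chr5:77349240-77408045 minus (Igfbp7), so that Igfbp2 and Igfbp5 are neighbours. Igf1r had the most measured cytosines, with 340 at 4 weeks and 304 at 12 weeks.

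The CpG-rich promoters were nearly free of 5mC. At 4 weeks the mean over the cytosines of the control libraries was 0.690 ± 0.066% for Igf1r (186 cytosines), 1.70 ± 0.280% for Igfbp2 (50), 1.23 ± 0.276% for Igfbp3 (101), 0.567 ± 0.250% for Igfbp4 (21) and 1.19 ± 0.244% for Igfbp7 (85). The unconverted share of mitochondrial DNA in the oxBS libraries of that week was 0.534 to 0.742%, near the values of Igf1r and Igfbp4 and below those of Igfbp2, Igfbp3 and Igfbp7. The promoter window of Igfbp6 differed from these, at 42.7, 29.8 and 39.7% in control and 36.6, 28.4 and 30.8% in DMM at 4 weeks, and at 40.1, 34.7 and 38.8% in control and 31.9, 31.1 and 34.9% in DMM at 12 weeks. The DMM and control libraries of Igfbp6 overlapped at both weeks (exact permutation p = 0.3 and 0.2). Gene bodies were methylated to different degrees in the 4-week control libraries, from 84.8 ± 1.79% for Igf1 through 52.0% (49.3 to 55.2%) for Igf1r, 51.3 ± 0.677% for Igfbp3, 38.3 ± 6.77% for Igfbp6, 33.8 ± 1.72% for Igfbp2 and 30.5 ± 1.21% for Igfbp5 to 26.0 ± 5.02% for Igfbp7.

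**Figure D4:**
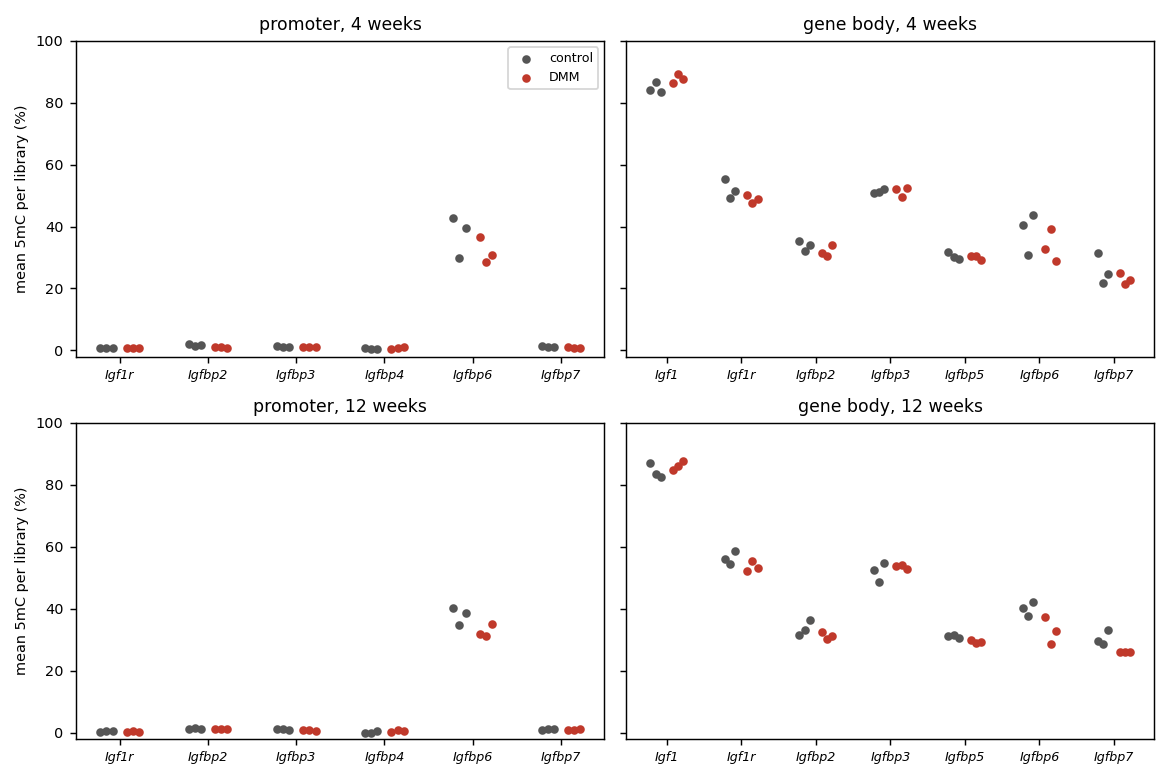
Mean 5mC over the measured cytosines of each gene, in percent (y axis), in the promoter window (left) and the gene body (right), with 1 point per library for 3 control (grey) and 3 DMM (red) libraries at 4 weeks (top) and 12 weeks (bottom). Promoters of 5 genes lie near 0, that of Igfbp6 between 28.4 and 42.7%, and the gene body of Igf1 above 82%.

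Over 13 regions at each week, the oxBS libraries of the limbs did not overlap for 1 at 4 weeks and 4 at 12 weeks, all lower in DMM. The region at 4 weeks was the Igfbp2 promoter (1.70 ± 0.280% in control, 1.02 ± 0.181% in DMM), where 6.37% of promoters and 6.27% of gene bodies in all genes were lower without overlap. With 20 reads or more per library its groups overlapped (exact permutation p = 0.2), and those of the Igfbp7 promoter did not. At 12 weeks they were the Igfbp3 promoter, at 1.03, 1.06 and 0.987% in control and 0.802, 0.982 and 0.636% in DMM, and the gene bodies of Igfbp5 (31.1 ± 0.450% and 29.4 ± 0.573%), Igfbp6 (40.1 ± 2.37% and 32.9 ± 4.32%, over 5 cytosines) and Igfbp7 (30.4 ± 2.42% and 26.0 ± 0.0833%). At 12 weeks 24.1% of gene bodies and 11.1% of promoters in all genes were lower in DMM without overlap, so the direction was common outside the axis. In the oxBS libraries the unconverted share of mitochondrial DNA was 0.534 to 0.742% at 4 weeks and 0.288 to 0.334% at 12 weeks. The differences of the Igfbp2 and Igfbp3 promoters were at most about this size, and the part of incomplete conversion in them was not tested. The Igfbp5 gene body overlapped with 20 reads or more per library and when weighted by coverage (exact permutation p = 0.2 and 0.4), and the Igfbp3 promoter when weighted (exact p = 0.2), while the gene bodies of Igfbp6 and Igfbp7 stayed apart under both. The gene body of Igf1r, with overlapping groups in the unweighted means, was lower without overlap when weighted at 4 weeks (-4.31 points) and 12 weeks (-5.08 points) and with 20 reads or more at 12 weeks (-4.41 points), as were the promoters of Igfbp7 at 4 weeks (-0.29 points) and Igfbp6 at 12 weeks (-6.23 points) when weighted. The shares over all genes given here are from unweighted means without the limit of 20 reads. No such share was computed for weighted means or for 20 reads or more. How common a separation under these alternatives is among all genes was therefore not tested. The smallest exact p of this design, 0.1, was the p of each region without overlap.

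For 5hmC, taken as the BS minus the oxBS percentage, the libraries did not overlap for the gene body of Igfbp3 at 4 weeks (3.36 ± 1.11% in control, 0.960 ± 1.07% in DMM), where 2.53% of gene bodies were lower without overlap, and for the gene body of Igfbp5 at 12 weeks (1.72 ± 0.341% in control, 3.59 ± 0.401% in DMM), where 11.7% were higher. For Igfbp3 the difference of -2.40 points was -0.87 with 20 reads or more (7 cytosines) and -1.51 when weighted by coverage, with overlapping groups in both (exact permutation p = 0.7 and 0.4). For Igfbp5 the groups overlapped when weighted by coverage (exact permutation p = 0.8). The same alternatives separated other regions, all higher in DMM (exact permutation p = 0.1 each). Weighted by coverage, the gene body of Igf1r was higher by 4.25 points at 4 weeks and 3.45 points at 12 weeks, where its unweighted differences of 2.67 and 2.71 points came with overlapping groups. The oxBS percentage subtracted here is the same that gives 5mC, so a lower 5mC raises 5hmC and the marks are not independent. With 20 reads or more, the promoter of Igfbp4 was higher by 0.47 points at 4 weeks (6 cytosines) and the gene body of Igfbp2 by 1.77 points at 12 weeks (12 cytosines). Without weighting and at the lower coverage, 6.77% of gene bodies and 5.37% of promoters in all genes were higher without overlap at 4 weeks. Shares over all genes were not computed for the alternatives. Promoters of the 5 CpG-rich genes had mean 5hmC between -0.169 and 0.483%, with values on both sides of 0. The BS file of DMM replicate 1 at 12 weeks carries another replicate number in its name than in its label, so the 5hmC of that sample rests on the label.

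At single cytosines, a call needed 25 points or more between the limbs and a q (Benjamini-Hochberg) under 0.05 in a likelihood ratio test on pooled reads. At 4 weeks 0 of the 750 member cytosines passed, where 0.000554% of 1444973 did, with 53 at an unadjusted p under 0.05, where 8.02% of all cytosines were. At 12 weeks 3 of 670 passed, where 0.227% of 1273121 did, and 69 had an unadjusted p under 0.05, where 9.43% of all did. All lie in introns of Igf1r on chromosome 7 (GRCm38), which spans chr7:67952257-68233667. The cytosine at position 67961442 in intron 1 had 76.0, 46.7 and 70.0% 5mC in control and 40.0, 22.7 and 42.9% in DMM, a difference of -31.1 points over 15 to 30 reads per library. That at 68004371 in intron 2 went the other way, at 57.7, 33.3 and 40.7% in control and 69.0, 78.6 and 85.3% in DMM (33.0 points). That at 68223667 in intron 20 had 48.0, 8.33 and 61.5% in control and 3.66, 7.69 and 28.6% in DMM, so its libraries overlapped although the pooled difference was -26.9 points. The pooled test counts reads and not libraries. With a correction for the spread between libraries, 0 of the 3 passed, and 0 of all 1273121 cytosines were called. With 3 libraries a group the corrected test called nothing at either week, so it cannot decide about these 3. Each of the 3 had a library under 20 reads (lowest 15, 18 and 13), so none could be tested at that coverage.

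The measured cytosines of the Igfbp6 promoter window all lie in exon 1, from 96 to 497 bases after the start, and fall into 6 in the 5′ untranslated part and 12 in the coding part. This split was noticed after the values were seen. The stretches below, read from GRCm38 on the plus strand, show the cytosine farthest upstream with its neighbour and the coding group, with CpGs in capitals.
Igfbp6 untranslated, chr15:102144270-102144299: gctcccaaattcCGggCGagattcccagga
Igfbp6 coding, chr15:102144600-102144690: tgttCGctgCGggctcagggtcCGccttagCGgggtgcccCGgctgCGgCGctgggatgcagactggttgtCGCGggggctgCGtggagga
At 12 weeks the first 6 were at 48.8, 45.5 and 51.8% in control and 27.0, 32.0 and 34.4% in DMM on average. Each of the 6 was lower in DMM, with differences from -22.0 to -12.4 points, and for 5 of them the libraries of the limbs did not overlap. Over all measured cytosines 5.57% were lower in DMM without overlap at 12 weeks, and over those with a mean 5mC of 20 to 80% the share was 17.1%. The first cytosine, at position 102144282, had 58.1, 38.3 and 47.8% in control and 27.4, 30.4 and 30.2% in DMM (a difference of -20.7 points, q = 0.00526, 46 to 117 reads per library). Its neighbour at 102144286 differed by -17.0 points (q = 0.0461), and the other 4 did not pass q under 0.05. With the correction for the spread between libraries none of the 6 passed (q = 0.907 for each), and 0 of all 1273121 cytosines were called. A correction that called no cytosine anywhere cannot decide about these 6. The 12 coding cytosines were at 35.8, 29.3 and 32.2% in control and 34.3, 30.7 and 35.1% in DMM, with differences from -4.72 to 5.90 points. At 4 weeks, the first 6 were at 48.5, 28.6 and 46.8% in control and 34.7, 38.9 and 34.9% in DMM, with differences from -10.1 to 7.71 points and overlapping libraries at each of the 6. These neighbouring cytosines share reads and are not independent.

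**Figure D5:**
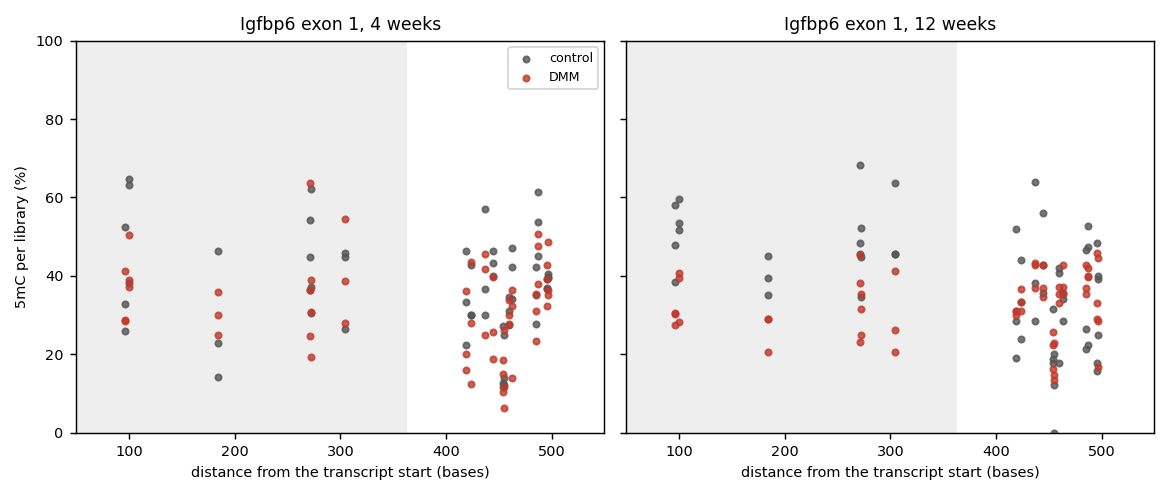
5mC of each measured cytosine of Igfbp6 exon 1 in percent (y axis) against its distance from the transcript start in bases (x axis), with 1 point per library for 3 control (grey) and 3 DMM (red) libraries at 4 weeks (left) and 12 weeks (right). The shaded part is untranslated. At 12 weeks the red points of the 6 shaded cytosines lie mostly below the grey points, while those of the 12 coding cytosines mix.

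The promoter of Igf1 held no measured cytosine, and the 6 in its gene body were at 84.8 ± 1.79% in control and 87.9 ± 1.50% in DMM at 4 weeks, with overlapping libraries.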

How the data were processed

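RNA-seq and RRoxBS were each run on 3 control and 3 DMM libraries per week, grouped by the sample labels. For RNA, the authors used FLEXBAR for trimming, STAR for alignment to mm10 and featureCounts for counting per RefSeq transcript. The deposited RNA values are raw counts per transcript. The labels describe poly(A) libraries, whereas the methods of the study describe low-input full-length cDNA. For RRoxBS, the deposited values are coverage, a whole number of reads per cytosine, and the percent of reads with C and with T, from files with at least 10 reads per site. The authors digested DNA with MspI, and the submitters' notes name Bismark and CASAVA 2.17.

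Counts were tested with edgeR 4.0.16 in R 4.3.3 (TMM, robust quasi-likelihood test, filterByExpr, adjusted p under 0.05), within a week for the limbs and over all 12 libraries for the weeks and the interaction. The SE was derived as the absolute log2 fold change over the square root of the F statistic of edgeR, which prints no SE. DESeq2 1.42.0 was an alternative. CPM were TMM-scaled. The log2 profiles used a constant of 0.05 CPM. 5mC was tested by a likelihood ratio test on pooled reads, and region means by exact permutation. Python 3.11.15 (scipy 1.17.1, numpy 2.4.6) was used for the rest, and scripts were tested on simulated data. Symbols came from the RefSeq annotation or a supplementary table of the study, and rows without a symbol were left out of the profile search. All 783 member cytosines were checked to be C in GRCm38. Libraries totalled 27706547 to 62737656 counts, and replicates differed beyond counting error. Knees came from several mice per library, so p-values of the RNA tests and region permutations measure the spread between pools. The pooled-read test of single cytosines measures the sampling of reads and leaves that spread out, except under the overdispersion correction.

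All 8 members were named in every comparison. From the pathway lists, called genes and the 3 largest fold changes were named. Profiles were printed for Igf1 and members whose group means spanned at least 1 log2 unit. Members and lists were chosen with earlier results of these data known. Alternatives were other normalizations and filters, 1 row per gene, a joint fit of all libraries, a block for the replicate number, each library left out, and for 5mC coverage of 20, overdispersion and 20 points.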

Additional observations from a re-analysis of the deposited data

How the results depend on the processing

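Of the 8 members, 0 were called between the limbs at 4 weeks, where 0.0757% of all rows were. Igf1 alone was called with DESeq2 (2.91% of all rows), with all 12 libraries in 1 fit (0.162%) and with the replicate block (1.67%). It was also called in 1 of 6 fits without a library (0.553%). At 12 weeks 0 were called (0.00476% of all rows), 2 with DESeq2 (3.4%) and 1 without the low-count filter (0.221%). Without a library 0 to 1 were called, in fits that called 0 to 4.04% of all rows. Between weeks in control, 2 were called (5.69%) and 4 with DESeq2 (11.5%). Without a library 0 to 5 were called, in fits that called 0.169 to 21.4% of all rows. Between weeks in DMM, 3 were called (23.6%), and 2 to 5 without a library, in fits that called 7.69 to 29.2% of all rows. The counts of all rows called rose from 16 to 747 (4 weeks) and from 1 to 861 (12 weeks) with DESeq2, and to 354 and 734 with the replicate block. The replicate numbers were not shown to pair the limbs, since same-numbered libraries deviated together by correlations of 0.36, -0.33 and 0.08 at 4 weeks and -0.55, 0.26 and -0.25 at 12 weeks. The block gave 0 members at 12 weeks and in the interaction, where Igfbp5 changed sign (-0.0099). Without a library, signs changed for Igf1r between the limbs at 12 weeks (-0.12 to 0.024, reversed at 0.0036, 0.0052 and 0.024), for Igfbp2 between weeks in control (-0.61 to 0.084, reversed at 0.020 and 0.084) and in DMM (-0.52 to 0.40, reversed at -0.089 and -0.52), and for the interactions of Igfbp2 (-0.33 to 0.73, also -0.0079), Igfbp3 (-0.0034 to 0.67) and Igfbp5 (-0.50 to 0.53, also -0.049).

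Of the member cytosines, 0 to 2 were called at 4 weeks without a library, the 2 without control replicate 2. That fit called 3039 of all 1444973 cytosines, where the fit of all libraries called 8. At 12 weeks 3 were called, where 2892 of all 1273121 cytosines were. With coverage of at least 20 reads, which removed all 3 before the test, 0 were called (1519 of all 943339). Overdispersion correction called 0 (0 of all 1273121), so it cannot decide about the members. A difference of 20 points called 5 (8582 of all 1273121). Without a library 1 to 6 were called, in fits that called 1641 to 5720 of all cytosines. Without both control replicate 2 and DMM replicate 1, whose titles share a style, 0 were called (1388 of all 1273121). This last alternative was chosen after seeing the data. Regions without overlap in 5mC went from 1 to 3 at 4 weeks when weighted by coverage, and numbered 1 to 7 without a library at 4 weeks and 5 to 8 at 12 weeks. In 5hmC there were 2 at 12 weeks with coverage of at least 20 reads, 1 to 5 at 4 weeks and 1 to 3 at 12 weeks without a library. Shares over all genes were not computed for weighted means, for coverage of at least 20 reads or without a library. These counts of regions are therefore not read as results about the axis. With 2 libraries against 3, groups separate more easily. The causes of the other shifts were not tested. With 3 libraries a group, an exact test cannot pass 0.05, and at 10 to 74 counts Igfbp2 is the least precise member.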
